A study of Mus musculus with 28 samples.

Results

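The comparison described here is the early step of control reprogramming, from day 1 to day 3 after mouse embryonic fibroblasts (MEFs) were switched to induction medium in DMSO. Its members are the 4 libraries titled as control on these days, 2 from day 1 and 2 from day 3, of 28 RNA-seq libraries in all. The series also covers MEFs with and without p38i (SB203580, which inhibits the p38 MAP kinases). Induction was sampled on days 1, 3, 5 and 7 in 3 arms, called DMSO, p38i (inhibitor while reprogramming ran) and pre-p38i (inhibitor beforehand). The DMSO arm was the reference against which p38 inhibition in either phase was judged.

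All the cells came from embryos of male OG2 mice (CBA/CaJ x C57BL/6J, carrying a GFP reporter under the control of the Oct4 gene) and female 129 mice, and the labels give the genotype as WT. Before day 0 the cells to be induced were infected with retroviruses carrying Sox2, Klf4 and Oct4 (OKS), and these cells were then kept in iCD1 medium. The day 1 and day 3 groups thus share the transgenes, the reporter and the medium. The labels name no DMSO for these libraries, and the paper does. Each library comes from a whole culture in which cells may have received different numbers of viruses, and nothing says whether the replicates came from separate cultures, so p-values measure only the spread between these samples.

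Fibroblasts that receive OKS give up their shape and contractile fibres before they gain the gene programme of embryonic stem cells, and pass through a mesenchymal-to-epithelial transition (MET) on the way. Retroviral infection can also be sensed as foreign nucleic acid, and cells that sense it, or that receive interferon from others, switch on a large group of antiviral genes through STAT and IRF factors. Stem cells themselves are known for a weak interferon response.

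The deposited values were whole numbers that added up to between 991548 and 991865 in the 4 libraries and were read as TPM (abundance relative to the whole library, corrected for transcript length) rounded down. TPM keeps no depth, so no counting error can be given. In bulk RNA, fewer cells of a type and less RNA per cell cannot be told apart. Between 13331 and 13871 genes had a value of at least 1 in these libraries. Per gene, log2 values differed by a root mean square of 0.363 within day 1 and 0.377 within day 3, and of 0.797 to 0.816 across the days. All 12 fibroblast markers were tested, of which 4 were called higher on day 3 and 6 lower, with log2 changes from -1.02 to 1.80, and Vim, for vimentin, had a value of 4720 and 4640 on day 1 and 3734 and 3522 on day 3.

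From day 1 to day 3, 2715 genes rose and 3174 fell among the 13230 genes tested, which is 20.5% and 24.0% (limma on log2(value + 1), adjusted p under 0.05). Either way, 44.5% changed. These percentages are the background for the counts of list members that follow. The rises were larger than the falls. Of the risen genes, 1064 changed by at least 2-fold on this scale (8.04% of the genes tested), 325 by at least 4-fold and 105 by at least 8-fold, against 432 (3.27%), 52 and 12 of the fallen genes. Over all the genes tested the median log2 change was -0.01, and it was -0.07 after quantile normalization and 0.03 after median-ratio scaling. Under the last of these the rises (3162) outnumbered the falls (2712). They also did when OKS and mitochondrially encoded genes were left out (2964 and 2867).

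**Figure D1:**
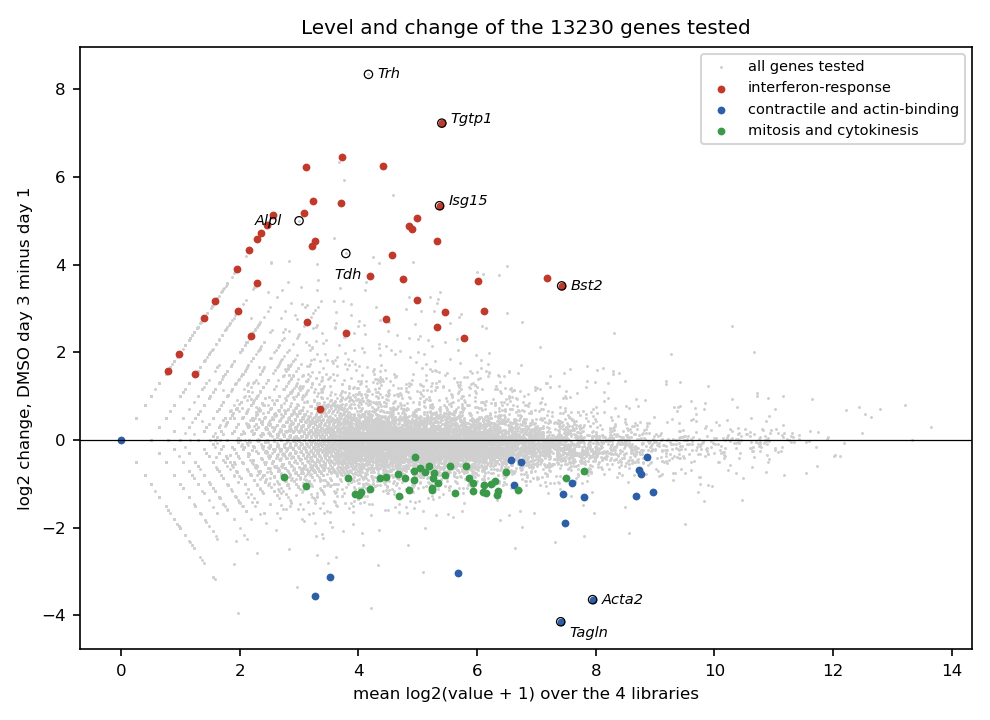
Log2 change of value + 1 from day 1 to day 3 in DMSO (vertical axis) against the mean log2(value + 1) over the 4 libraries (horizontal axis), 1 point per gene tested, with the interferon-response, contractile and mitosis lists in colour and 8 genes named. The 43 interferon-response genes lie above 0 and reach 7.23 for Tgtp1, the mitosis genes lie in a narrow band below 0, and Tagln at -4.14 is the lowest point.

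Antiviral genes had the highest median change of the lists of pathways and programmes. All 43 tested members of the interferon-response list rose, with a median log2 change of 3.74, and in all 43 both day 3 libraries lay above both day 1 libraries (29.4% of all genes tested did). The members summed to 258 and 281 in the day 1 libraries, against 4229 and 5208 in those of day 3. It was thus 17.5 times as high on day 3, and the day 3 libraries differed from each other far less than from day 1. On day 1 no member had a value above 54, and 11 members were at 0 in both libraries, so that their fitted changes depend on the pseudocount. Of the 100 genes with the largest rises, 30 belonged to this list or to the MHC class I list. The list and the MHC list share 5 genes.

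Tgtp1 and Igtp, which rose most, encode immunity-related GTPases, interferon-induced proteins that act on the vacuoles of intracellular pathogens. Tgtp1 (ENSMUSG00000078922) was at 2 and 3 on day 1 and at 467 and 575 on day 3. Its mean went from 2.5 ± 0.707 to 521 ± 76.4 (SD, n = 2), a log2 change of 7.23 ± 0.19 (SE, limma, adjusted p = 4.15e-16). Igtp was at 1 and 0 on day 1 and at 96 and 159 on day 3 (log2 change of 6.46 ± 0.23, adjusted p = 1.85e-14, limma). The day 3 libraries stood well apart for this gene, the second being the higher, but neither came near day 1. Irgm2 went from 1 in both libraries to 71 and 100. Reads of some of these genes cannot be assigned with certainty, because Tgtp1 is near-identical in sequence to Tgtp2, and Irgm2 and Igtp overlap in the annotation.

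Members that act on viral RNA or on infected cells rose with them. Oas2, an enzyme that makes the oligoadenylates that activate RNase L, was listed at 0 on day 1 and at 73 and 74 on day 3 (log2 change of 6.22 ± 0.09, adjusted p = 9.2e-20, limma). Since its day 1 values are 0, this change depends on the pseudocount. Oasl2, of the same family, was at 1 and 2, then at 188 and 182. Isg15, a ubiquitin-like protein that is attached to other proteins, was at 5 and 6 on day 1 and at 238 and 289 on day 3 (log2 change of 5.34 ± 0.21, adjusted p = 7.95e-14, limma). Ifit1, which binds viral RNA, was at 0 and 1, then at 55 and 68. Bst2, or tetherin, which holds virus particles at the cell surface, was among the most abundant members, with 46 and 54 on day 1 and 523 and 645 on day 3. Ifit2, at the other end, had the lowest log2 change of the list, 0.72, and was at 8 and 6, then at 9 and 16.

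The transcription factors of the pathway were on the list as well. Stat2, which carries the signal of type I interferon, was at 15 in both libraries on day 1 and at 114 and 127 on day 3 (log2 change of 2.92 ± 0.09, adjusted p = 3.61e-15, limma). Irf9, its partner on DNA, rose by 2.58 on the log2 scale. Irf7, an amplifier of interferon production, was at 6 and 7, then at 88 and 103. Irf1 went from 8 and 7 to 45 and 71. The interferons, their receptors and the sensors of nucleic acids, a list written after values had been seen, behaved otherwise. Ifnb1, Ifng, Ifna2, Ifna4, Ifnk, Ifne, Ifnl2 and Ifnl3 were listed at 0 in all 4 libraries, and the receptor genes Ifnar1 and Ifngr2 fell, by 0.17 and 0.52. Of the 13 tested genes of that list 3 rose and 3 fell, and the sensor Tlr3, with a log2 change of 1.40, rose most.

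Genes that show peptides to T cells rose too. All 16 tested MHC class I genes were higher on day 3, with a median log2 change of 1.65 and a summed value that went from 1558 and 1554 to 3314 and 3637. Psmb8 and Psmb9, subunits of the immunoproteasome that cuts these peptides, were at 1 and 0 and at 0 and 0 on day 1, and at 38 and 66 and at 21 and 31 on day 3. Their log2 changes were 5.18 ± 0.42 and 4.73 ± 0.22 (adjusted p = 5e-09 and 1.56e-12, limma). Tap1, a subunit of the peptide transporter whose gene overlaps that of Psmb9, went from 10 and 9 to 83 and 109. Nlrc5, the transactivator of class I genes, went from 1 in both libraries to 8 and 11. Among the class I molecules themselves, H2-K1 and H2-D1 changed less, with log2 changes of 1.22 and 0.74. H2-T23 rose more, by 3.64 to 4.19 over the alternative settings (adjusted p = 5.42e-13 in the main fit, limma). B2m, the light chain of class I molecules, was at 1183 and 1195 on day 1 and at 2307 and 2447 on day 3, a log2 change of 1.00 ± 0.04.

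Promoter sequence is shown for 5 of these genes because it carries the element that interferon factors are known to bind. The stretches are the 120 bases before the RefSeq start (GRCm38.p6), read 5′ to 3′ along the gene. The capitals mark the interferon-stimulated response element (ISRE), searched as GAAA, any 2 bases and GAAA again on either strand, and TTCNNNGAA, the core of the gamma-activated sequence (GAS), in Irgm2, Igtp and Tgtp1, where it stands just before the ISRE. In Isg15 overlapping ISRE matches form a single run.
Isg15 (chr4:156200819-156200938, minus strand): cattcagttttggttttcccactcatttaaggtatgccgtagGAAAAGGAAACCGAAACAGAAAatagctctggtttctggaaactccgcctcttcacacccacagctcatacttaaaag
Ifit1 (chr19:34640769-34640888, plus strand): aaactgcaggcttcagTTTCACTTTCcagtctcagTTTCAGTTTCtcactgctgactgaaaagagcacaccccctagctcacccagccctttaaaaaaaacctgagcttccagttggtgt
Irgm2 (chr11:58214857-58214976, plus strand): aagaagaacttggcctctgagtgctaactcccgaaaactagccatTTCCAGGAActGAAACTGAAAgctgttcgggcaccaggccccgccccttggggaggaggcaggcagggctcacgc
Igtp (chr11:58199436-58199555, plus strand): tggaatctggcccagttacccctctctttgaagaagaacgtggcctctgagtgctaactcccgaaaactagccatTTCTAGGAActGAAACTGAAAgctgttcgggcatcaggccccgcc
Tgtp1 (chr11:48992247-48992366, minus strand): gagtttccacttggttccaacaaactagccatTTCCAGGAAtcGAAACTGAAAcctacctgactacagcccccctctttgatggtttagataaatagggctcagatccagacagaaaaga

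In these 5 genes the ISRE nearest to the start began 66, 85, 64, 34 and 77 bases before it, and in the 3 GTPases the GAS letters began 75, 45 and 88 bases before it. Windows of 300 bases, 250 before and 50 after the start, were given for 31 of the 43 genes. Of these, 20 (64.5%) held an ISRE on either strand, against 3.78% of the genes tested that had a window and 3.99% of all genes with one. GAS letters stood in 10 of the 31 windows (32.3%), against 8.11% of the genes tested. Of 14 MHC class I genes with a window, 3 held an ISRE and 2 the GAS letters. A match describes these letters, not a bound site.

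Contractile genes stood at the other end, with the lowest median change of these lists. Of the 18 tested contractile and actin-binding genes, 17 fell and none rose, with a median log2 change of -1.20. The eighteenth, Lmod1, was listed at 0 in all 4 libraries. Their summed value was 6408 and 6449 on day 1 and 2506 and 2525 on day 3. Tagln, or transgelin, an actin cross-linker and marker of smooth muscle and activated fibroblasts, was at 675 and 755 on day 1 and at 38 and 41 on day 3. Its log2 change of -4.14 ± 0.13 was the largest fall of all genes tested (adjusted p = 4.13e-15, limma). Acta2, smooth muscle actin, was at 841 and 901, then at 66 and 72 (log2 change of -3.64 ± 0.11, adjusted p = 1.81e-15, limma). Cnn1, or calponin, went from 37 and 28 to 3 and 1. Myl9, a regulatory light chain of myosin, went from 148 and 144 to 15 and 19. Broader actin-binding genes fell less, Flna, Vcl and Tpm4 by 0.76, 0.51 and 0.40 on the log2 scale.

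Serum response factor is known to act on such genes through the CArG box, which stands in capitals in the 2 stretches below, from 200 to 81 bases before the start of Myl9 and from 120 to 1 before that of Acta1 (GRCm38.p6, RefSeq).
Myl9 (chr2:156775264-156775383, plus strand): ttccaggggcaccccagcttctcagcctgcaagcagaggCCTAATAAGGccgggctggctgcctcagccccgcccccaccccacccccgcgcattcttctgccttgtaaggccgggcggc
Acta1 (chr8:123894776-123894895, minus strand): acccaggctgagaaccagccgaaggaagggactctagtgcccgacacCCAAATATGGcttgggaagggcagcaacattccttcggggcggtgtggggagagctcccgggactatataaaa
Of 16 contractile genes with a window, 4 (25%) held a CArG box, against 1.64% of the genes tested. It began 161 bases before the start of Myl9 and 73 before that of Acta1.

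The extracellular matrix changed in both directions. Of 27 tested matrix genes 5 rose and 17 fell, with a median log2 change of -0.34, and of 20 collagen chains 8 rose and 5 fell, with a median of 0.22. Lox, lysyl oxidase, which cross-links collagen, was at 359 and 349 on day 1 and at 69 and 71 on day 3 (log2 change of -2.32 ± 0.06, adjusted p = 4.1e-16, limma). Fbln5, an elastic fibre protein, and Fmod, which binds collagen fibrils, fell by 1.71 and 3.35. Lum, or lumican, of the same protein family as Fmod, went the other way, from 19 and 21 to 68 and 76. Among the collagens, Col1a1 fell from 1392 and 1318 to 719 and 620, while Col1a2, the other chain of type I collagen, was at 1731 and 1611 and then at 2075 and 1872 and rose by 0.24. Col3a1, Col4a1, Col4a2, Col6a1 and Col18a1 also rose, Col18a1 most with a log2 change of 1.52 ± 0.08. Col12a1 fell by 1.76. Of 20 proteases and inhibitors 7 rose and 6 fell. Serpine2, an inhibitor of serine proteases, went from 227 and 222 to 578 and 562 (log2 change of 1.34 ± 0.05, adjusted p = 2.47e-14, limma).

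**Figure D2:**
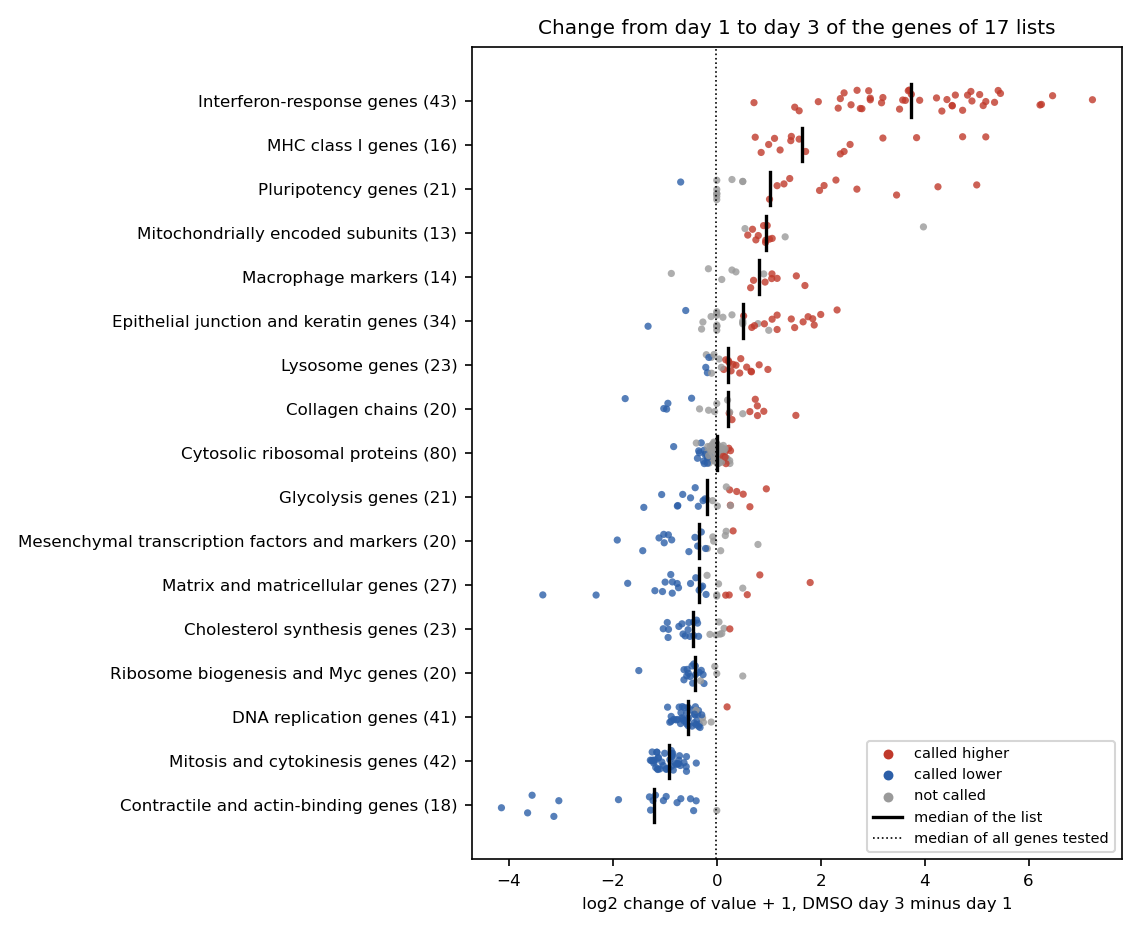
Log2 change from day 1 to day 3 in DMSO of each tested gene of 17 lists (number of genes in brackets), in red or blue where called and grey where not, with the median of each list as a black bar and that of all genes tested as a dotted line. The interferon-response genes spread from 0.72 to 7.23, and the contractile genes from -4.14 to 0.00.

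Mesenchymal genes fell in part and epithelial genes rose in part, both sides of MET. Of 20 tested mesenchymal factors and markers 12 fell and 1, Foxc1, rose, with a median log2 change of -0.33. Snai1 and Snai2, repressors of E-cadherin, fell from 11 and 11 to 6 and 4 and from 21 and 19 to 10 and 10. Twist1 fell by 0.30. The calls of Snai1 and Twist1 were among those lost when the model was fitted to the 4 libraries alone, which left 8 falls and no rise. Zeb1, at 19 and 16 and then at 17 and 16, was not called (log2 change of -0.08, adjusted p = 0.602, limma), and neither were Zeb2 and Cdh2. S100a4, also called fibroblast-specific protein, fell from 1362 and 1458 to 337 and 413.

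Of 34 tested epithelial junction and keratin genes, 15 rose and 2, Cldn4 and Krt19, fell. Of the 34, 7 were at 0 in both day 1 libraries. These passed the filter on low values only through other libraries and could not fall, so the filter favours rises here. Cdh1, E-cadherin, was at 10 and 11 on day 1 and at 33 and 30 on day 3, a log2 change of 1.5 ± 0.10 (adjusted p = 1.5e-10, limma). Epcam, an adhesion molecule of epithelia and stem cells, went from 1 in both libraries to 8 and 10, and Krt8 from 2 in both to 10 in both. St14, a membrane protease of epithelia, and Spint2, which inhibits such proteases, rose by 1.85 and 1.76. Cldn3 was at 1 and 0 on both days, and Cldn7, Krt7, Rab25 and Ap1m2 were listed at 0 in all 4 libraries. Esrp1, Grhl2, Ovol1 and Ovol2, regulators of the epithelial state, were also at 0 in these 4 libraries and were not tested. The epidermal differentiation list had 6 risen and 5 fallen genes of 21, Tgm3 rising by 2.42 and Crct1 falling by 1.55. Its 11 calls were 6 without day 1 replicate 1 and 7 without day 3 replicate 1.

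Pluripotency genes began to appear, but few of the defining ones. Of the 36 genes listed, 21 passed the filter on low values, 11 of these rose and 1, Klf5, fell. Fitted to the 4 libraries alone, 5 rose and 1 fell. The filter took the mean over all 28 libraries, and 10 of the 21 genes were at 0 in both day 1 libraries. Such genes passed only through other libraries and could not fall, so the filter favours rises in these counts. Tdh, threonine dehydrogenase, an enzyme that mouse stem cells depend on, was at 4 and 1 on day 1 and at 56 and 63 on day 3 (log2 change of 4.26 ± 0.23, adjusted p = 1.1e-11, limma). Alpl, the alkaline phosphatase used to stain stem cell colonies, went from 0 and 1 to 53 and 37. Tfcp2l1, a factor of the naive state, was listed at 0 on day 1 and at 10 in both day 3 libraries. L1td1, which binds RNA in stem cells, rose from 38 and 34 to 146 and 143. Zfp42 (Rex1), Gdf3 and Fgf4 reached between 4 and 7. Nanog, Dppa5a, Esrrb, Sall4 and Nr5a2 were listed at 0 in all 4 libraries, as were Dppa3, Lin28a, Utf1 and Tdgf1, which were not tested.

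The 3 reprogramming factors were abundant on both days. Sox2 was at 1075 and 975 on day 1 and at 1080 and 886 on day 3, and Klf4 at 777 and 697, then at 806 and 667, neither of them called (log2 changes of -0.07 and -0.01, adjusted p = 0.799 and 0.998, limma). Pou5f1, the Oct4 gene, went from 2996 and 2822 to 3488 and 3216 and was called higher by 0.20 ± 0.05 (adjusted p = 0.00105, limma). That call was lost when the model was fitted to these 4 libraries alone and after quantile normalization (adjusted p = 0.125 and 0.0545, limma). The values do not separate viral from endogenous transcripts. In untreated MEFs Pou5f1 was listed at 0.

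The largest log2 change of all was that of a hormone gene. Trh, the precursor of thyrotropin-releasing hormone, was listed at 0 in both day 1 libraries and was at 307 and 340 on day 3, a change of 8.34 ± 0.17 on the log2(value + 1) scale (adjusted p = 1.76e-17, limma). It was at 0 in the MEFs as well, and at 922 and 873 on day 5 and 1749 and 1792 on day 7. Lists written after Trh had been seen show its neighbours in function. Of 11 tested neuropeptide and prohormone genes 7 rose and 2 fell. Pcsk1, which cleaves prohormones, and Pcsk1n, its inhibitor, rose from 2 in both libraries to 15 and 13 and from 7 and 6 to 140 and 108. Penk and Npy rose by 2.65 and 2.60. Dio3, the deiodinase that inactivates thyroid hormone, was listed at 0 on day 1 and at 11 and 10 on day 3, and the receptor gene Trhr was at 0 throughout. Among the surface proteins of the Ly6 family, another list written after values had been seen, all 6 tested of 11 genes rose, and Ly6a (Sca-1) went from 520 and 497 to 2910 and 3276.

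**Figure D3:**
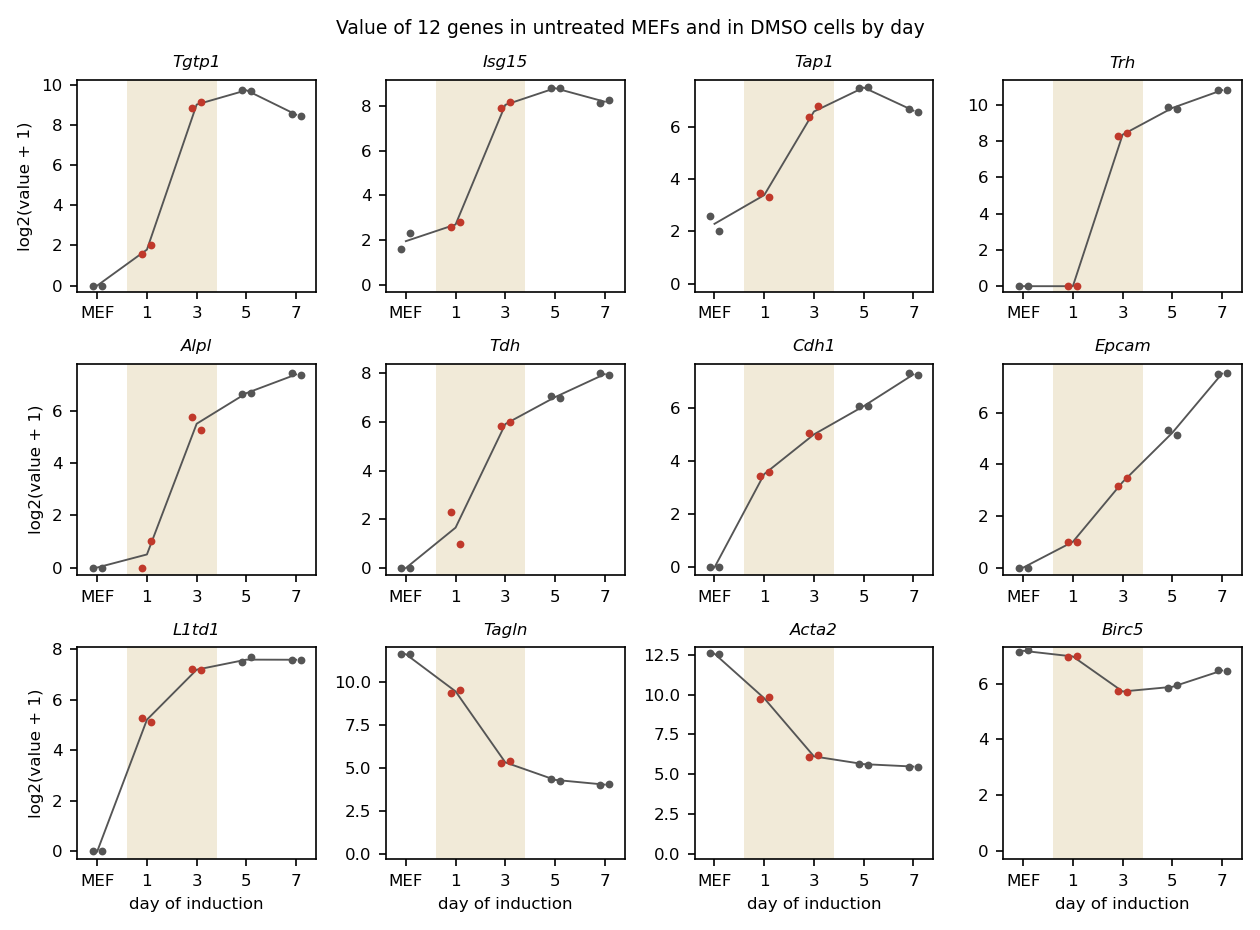
Log2(value + 1) of 12 genes (vertical axis) in untreated MEFs and in DMSO cells on days 1, 3, 5 and 7 (horizontal axis), 1 point per library with a line through the group means and days 1 and 3 shaded. Trh and Tgtp1 rise between day 1 and day 3, Tagln and Acta2 fall from the MEFs on, and Birc5 is lower on day 3 than on day 1.

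Cell cycle genes fell together. All 42 mitosis and cytokinesis genes fell, within a narrow range of log2 changes from -1.28 to -0.39 and with a median of -0.91, and in all 42 the day 3 libraries lay below the day 1 libraries (34.7% of all genes tested did). Their summed value went from 2944 and 2889 to 1495 and 1530. Birc5, or survivin, of the chromosomal passenger complex, was at 123 and 126 on day 1 and at 52 and 51 on day 3 (log2 change of -1.26 ± 0.10, adjusted p = 3.97e-09, limma). Ccnb1, or cyclin B1, went from 103 and 109 to 49 and 56. Cdc20, the activator of the anaphase-promoting complex, went from 150 and 156 to 72 and 66. Mki67, the antigen used as a marker of cycling cells, went from 33 and 32 to 18 and 19. Of 41 DNA replication genes 36 fell and 1 rose, with a median of -0.55 (17 fell and none rose when only the 4 libraries were fitted), Rrm2, a subunit of ribonucleotide reductase, going from 247 and 238 to 132 and 131. G1 regulators were split, 7 risen and 7 fallen of 21. Ccnd2, or cyclin D2, rose from 216 and 207 to 417 and 410, the inhibitor Cdkn1a (p21) rose by 0.35, and Ccne1, Ccne2 and E2f1 fell by 0.73, 0.76 and 0.71.

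Promoters of such genes are known for repeated CCAAT boxes, the site of NF-Y, and for the cell cycle homology region (CHR). The 3 stretches below are the 120 bases before the RefSeq start (GRCm38.p6), with CCAAT in capitals.
Ccnb1 (chr13:100786487-100786606, minus strand): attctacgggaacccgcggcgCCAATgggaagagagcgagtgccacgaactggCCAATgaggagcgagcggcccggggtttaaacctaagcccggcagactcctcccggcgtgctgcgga
Ccnb2 (chr9:70421555-70421674, minus strand): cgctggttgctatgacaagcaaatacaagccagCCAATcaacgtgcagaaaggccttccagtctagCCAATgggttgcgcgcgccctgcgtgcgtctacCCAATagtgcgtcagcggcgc
Cdc20 (chr4:118437344-118437463, minus strand): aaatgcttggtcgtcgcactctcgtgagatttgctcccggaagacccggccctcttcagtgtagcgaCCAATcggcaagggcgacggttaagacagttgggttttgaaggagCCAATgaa
In Ccnb2 the boxes began 87, 54 and 21 bases before the start. Of the 36 mitosis genes with a 300-base window, 17 (47.2%) held at least 2 CCAAT boxes on either strand, against 16.9% of the genes tested with a window. Repeated boxes were not particular to this list. They also stood in 14 of 33 windows of DNA replication genes (42.4%) and in 8 of 14 of MHC class I genes (57.1%), which rose. The CHR letters TTTGAA, on either strand, stood in 28 of the 36 windows (77.8%), against 14.4% of the genes tested.

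Tubulins, a list written after values had been seen, fell as well, 12 of 14 tested. Tuba1b was at 1492 and 1447 on day 1 and at 568 and 561 on day 3, and the neuronal type Tubb3 went from 243 and 222 to 42 and 41. Genes of growth and biosynthesis fell more mildly. Ribosome biogenesis and Myc genes had 16 fallen and none risen of 20 (median -0.43), cholesterol synthesis genes 16 fallen and 1 risen of 23 (median -0.45), and fatty acid synthesis genes 10 fallen and 1 risen of 13 (median -0.41). Fdps, of the mevalonate pathway, went from 521 and 520 to 268 and 269. Of the 21 ATF4 stress-response genes 10 fell and 3 rose (8 and 3 after quantile or median-ratio scaling). Phgdh, which opens serine synthesis, fell from 207 and 221 to 51 and 55. Of the 21 glycolysis genes 10 fell and 6 rose, and Ldha fell from 825 and 820 to 486 in both libraries. When only the 4 libraries were fitted, 2 glycolysis genes rose and 8 fell, and 10 ribosome biogenesis and 7 fatty acid synthesis genes fell. Cytosolic ribosomal proteins had 7 risen and 14 fallen of 80 and a median of 0.00, and the sign of that median changed with the scaling. Their calls were 13 risen and 7 fallen after median-ratio scaling, and 6 of each without day 3 replicate 1.

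Mitochondrial transcripts took a larger share of the day 3 libraries, 5.19% and 5.57% against 3.06% and 3.16% on day 1. Of the 13 subunits encoded in the mitochondrial genome 10 rose and none fell, mt-Nd2 going from 1165 and 1167 to 2465 and 2420. The other 3, mt-Nd3, mt-Co2 and mt-Co3, differed between replicates more than between days, mt-Nd3 being at 0 and 519 on day 1 and at 159 and 804 on day 3. The nuclear subunits of the same complexes had 3 risen and 16 fallen of 60 and a median of -0.09 (3 and 9 without day 3 replicate 1). This split depended on the scaling: quantile normalization gave 7 risen and 8 fallen, and median-ratio scaling 6 risen and 8 fallen. With only the 4 libraries fitted, none rose and 8 fell. Lysosome genes had 14 risen and 3 fallen of 23, with a median log2 change of 0.22, and 11 risen and none fallen when only the 4 libraries were fitted. Metallothioneins Mt1 and Mt2 rose by 0.72 and 1.27.

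Signalling genes moved one by one. Of 19 TGF-β pathway genes 4 rose and 9 fell, with Inhba, which encodes an activin subunit, and Fst, the activin antagonist follistatin, falling by 1.66 and 1.49. Id3, a target of BMP, rose from 11 in both libraries to 25 in both. YAP targets had 4 risen and 3 fallen of 14. Ankrd1, which also answers to stretch, fell from 21 in both to 4 in both, and Nt5e rose from 106 and 101 to 303 and 294. Of 13 AP-1 genes 3 rose and 4 fell, Jun rising by 0.28 and Fosl1 falling by 0.88, and the 7 calls were 4 without day 1 replicate 1. The call of Jun was lost without day 1 replicate 2 or day 3 replicate 1 (adjusted p = 0.055 and 0.097, limma). Of 25 genes of p53 and its targets 9 rose and 6 fell. Bbc3 (Puma) rose by 1.41, and Trp53 itself, at 174 and 158 and then at 156 and 142, was not called (adjusted p = 0.0628, limma), although it was, as lower, without day 1 replicate 2 or day 3 replicate 1 (adjusted p = 0.0305 and 0.0321, limma). Mapk14, which encodes p38α, fell by 0.31, a call lost without day 1 replicate 1 (adjusted p = 0.0633, limma). The BMP, AP-1 and G1 lists had medians within 0.03 of 0 whose sign changed with the scaling. Among cytokine and growth factor genes, 7 of 22 rose and 9 fell. Ccl8 rose from 6 and 8 to 39 and 70 and Igfbp7 fell from 787 and 772 to 188 and 172. The imprinted gene H19 rose from 184 and 175 to 558 and 519, and Mest fell from 85 and 76 to 26 and 23. Hox genes had 7 risen and none fallen of 26, and 4 risen without day 3 replicate 1. When only the 4 libraries were fitted, 2 TGF-β genes rose and 6 fell, 2 YAP targets went each way, 1 AP-1 gene went each way, 3 Hox genes rose, and Jun and Mapk14 were not called (adjusted p = 0.165 and 0.128, limma).

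Markers of other cell types were checked because cultures from embryos can hold more than fibroblasts. Of 14 tested macrophage markers 8 rose and none fell, with a median log2 change of 0.81 (5 rose without day 1 replicate 2), and their summed value was 309 and 295 on day 1 and 532 on day 3 in both libraries. Lyz2 was at 171 and 161, then at 248 and 275, and C1qc at 5 and 7, then at 23 and 20. Adgre1 and Csf1r, which define macrophages, had no value above 7, and neither was called. These markers moved in the same direction as the interferon-response genes, and their part in that rise was not tested. Of 10 T and NK cell markers only Cd3g was tested, and it was listed at 0 on day 1 and at 12 and 8 on day 3. Of the neural markers Tubb3, Map2 and Stmn2 fell, by 2.46, 1.45 and 0.56. Of the myosin heavy chains of striated muscle, a list written after values had been seen, Myh1 and Myh2 rose, to 50 and 31 and to 15 and 10, and the other 5 were not tested. Endothelial, muscle, adipocyte and erythroid markers had at most 4 tested members each, and the only riser among them was Tek, at 18 and 17, then at 45 and 49. Of these lists 2 endothelial, 2 muscle and 3 adipocyte markers fell. With only the 4 libraries fitted, 1 endothelial marker, which rose, and no muscle marker were called. Of 4 tested cartilage and bone markers 1, Alpl, rose and 1, Runx2, fell. The call of Runx2 was lost at a pseudocount of 0.1 and when the filter on low values was dropped (adjusted p = 0.101 and 0.0668, limma). It was also lost when any single library of the 4 was left out, with log2 changes between -0.88 and -0.76.

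The step before and the step after show where the change stood in time, although they share the day 1 or day 3 libraries with it, so their values are only set side by side. Tgtp1 changed by 1.79 from MEFs to day 1, by 7.23 to day 3 and by 0.71 from day 3 to day 5 on the log2 scale. For Isg15 the 3 values were 0.74, 5.34 and 0.74. For Tagln they were -2.17, -4.14 and -1.02, and for Acta2 -2.79, -3.64 and -0.48. Birc5 had -0.20, -1.26 and 0.17, so that its fall stood between day 1 and day 3. Cdh1 had 3.52, 1.5 and 1.07, so that its largest change came before day 1. L1td1 likewise had 5.21, 1.98 and 0.40.

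The same step was compared between arms by testing the difference of the changes. Between p38i and DMSO it differed for 369 genes (2.79% of those tested), 93 of them with a more positive change in p38i (0.703%) and 276 with a more negative one (2.09%), and these were 156 and 279 after quantile normalization. Between pre-p38i and DMSO it differed for 786 genes (5.94%), with a more positive change in pre-p38i for 559 (4.23%) and a more negative one for 227 (1.72%), and the split was 364 and 342 after quantile normalization and 396 and 386 after median-ratio scaling. The rise of the interferon-response genes was smaller in p38i for 29 of 43 genes, with a median difference of -1.52, and larger in pre-p38i for 24, with a median difference of 1.11, and no gene of the list was called the other way in either arm. These counts were 16 and 13 at a pseudocount of 0.1 and 11 and 4 when only the groups compared were fitted, with medians of -1.40 and 1.11 at that pseudocount. In pre-p38i it was 16 without DMSO day 3 replicate 1 or pre-p38i day 3 replicate 2. On day 3 their summed value was 1355 and 1367 in p38i and 9098 and 9447 in pre-p38i, beside 4229 and 5208 in DMSO. On day 1 the 6 libraries of the 3 arms lay between 218 and 281. Tgtp1 ended at 39 and 37 in p38i and at 1076 and 1000 in pre-p38i, and its log2 rise differed from that in DMSO by -2.44 in p38i (adjusted p = 1.76e-05, limma) and by 1.21 in pre-p38i (adjusted p = 0.0117, limma). Both of these calls were lost at a pseudocount of 0.1 (differences of -0.82 and 1.28, adjusted p = 0.765 and 0.452, limma) and when only the groups compared were fitted (adjusted p = 0.119 and 0.0743, limma), and the second also without DMSO day 1 replicate 2 or day 3 replicate 1 (adjusted p = 0.0606 and 0.0658, limma). Irf7 and Irf9 were among the genes whose rise was not called different in p38i, with differences of -0.14 and -0.44 (adjusted p = 0.856 and 0.091, limma).

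Of the 16 MHC class I genes 13 had a smaller rise in p38i, with a median difference of -1.10, and 14 a larger rise in pre-p38i, with 1.40 (3 and 11 when only the groups compared were fitted). H2-K1 ended at 127 and 133 in p38i, 519 and 490 in pre-p38i and 185 and 197 in DMSO. The macrophage markers summed to 291 and 279 on day 3 in p38i and to 243 and 231 in pre-p38i, from 211 and 227 and from 117 and 114 on day 1. Their median log2 change was 0.86 in pre-p38i, 0.07 in p38i and 0.81 in DMSO. Their part in the differences of the interferon-response genes between arms was not tested.

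**Figure D4:**
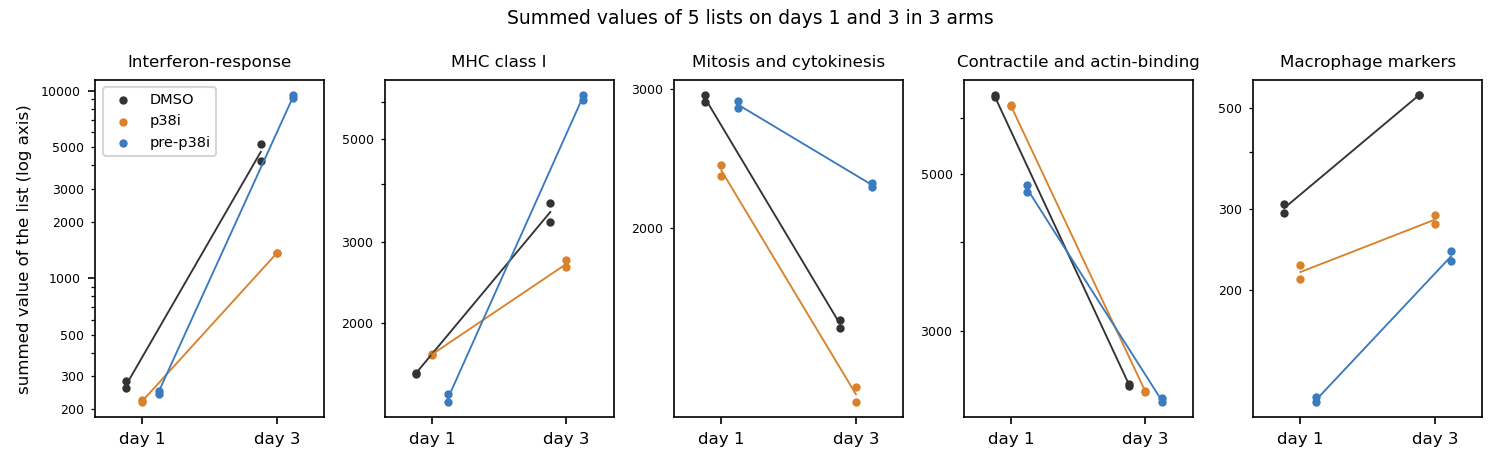
Summed value of 5 lists (vertical axes, log scale) on days 1 and 3 in DMSO, p38i and pre-p38i, 1 point per library with lines between group means. The interferon-response sums of day 3 run from 1355 in p38i to 9447 in pre-p38i, and the contractile sums of day 3 lie close together in the 3 arms.

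The fall of the mitosis genes was smaller in pre-p38i. Of the 42 genes 33 differed from DMSO, all in that direction, with a median difference of 0.61, and the summed value was 2281 and 2252 on day 3 in pre-p38i against 1495 and 1530 in DMSO. Mki67 was at 34 and 33 on day 3 in pre-p38i, against 32 in both day 1 libraries. After quantile or median-ratio scaling 29 genes differed, and 17 did when only the groups compared were fitted. In p38i no mitosis gene was called different by limma, 7 of the 42 had an unadjusted p under 0.05, and the median difference was 0.06. Of the 18 contractile genes 1 differed in each direction in p38i, with a median difference of 0.01, and 3 had a more positive change in pre-p38i, with a median of 0.10 over the list. Their summed value was lower on day 1 in pre-p38i (4713 and 4813) than in DMSO (6408 and 6449), and it was 2381 and 2410 on day 3. Actg2, which was at 141 and 140 and then at 71 and 66 in DMSO, ended at 27 and 22 in p38i and at 90 and 103 in pre-p38i and was called different in both. Trh was higher on day 3 in pre-p38i, at 794 and 866, and lower in p38i, at 156 and 143, with differences of 0.86 and -1.11 (adjusted p = 0.044 and 0.0149, limma). Neither call held at a pseudocount of 0.1, where the first turned to -0.37 (adjusted p = 0.88, limma), the day 1 libraries of pre-p38i being at 0 and 1. In all, the pre-p38i call was lost in 12 of 17 alternatives and the p38i call in 4, and without DMSO day 1 replicate 1 both were (adjusted p = 0.106 and 0.0503, limma). The rise of Cdh1 was larger in pre-p38i by 0.75 (adjusted p = 0.00217, limma), and no difference was called in p38i (0.14, adjusted p = 0.715, limma).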

How the data were processed

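Expression was measured by RNA-seq of poly(A)-selected RNA in 28 libraries, 2 in each of 14 groups, taken from the sample titles. The labels name TRIzol and a V2 kit, the paper another extraction and a V3 kit. The submitters' processing notes list Bowtie2 2.2.5, RSEM 1.3.0 and the builds hg38 and mm10, with no role. The authors deposited 1 whole number per gene and library, a score read here as TPM rounded down, so depth is unknown. Of the identifiers 99.6% are in GENCODE M21 and 92.5% of the genes have the same coordinates there. 27 names turned into dates by a spreadsheet were restored by identifier.

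The test was limma 3.58.1 (R 4.3.3) on log2(value + 1), with a trended prior and Benjamini-Hochberg adjustment, in 1 model of all 14 groups and no replicate block. It covered 13230 genes, those averaging 1 or more over all libraries of the series. A gene high only on later days could thus pass. The scale understates changes of low genes. In simulated data of the day 3 against day 1 comparison, 12805 genes were tested and 200 were changed, all drawn from genes not low on day 1. Of these, 99 of 100 genes changed by 1 and 67 of 100 changed by 0.5 (log2) were called, and 5.68% of calls were unchanged genes. These rates do not cover genes low on day 1, nor a step in which 44.5% of genes were called.

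The genes named are the 12 largest rises and 12 largest falls that were called, averaged 5 or more and did not overlap between days, up to 4 called members per list, and genes the study names, 197 in all, with the 5 largest differences in each direction between arms. Further list members given as examples, and the lists named as such, were chosen after their values were seen. The comparison and all lists were chosen with earlier results of these data known. Of the named genes 41 share at least 95% identity over 200 bases with another gene at 1 or more (BLAST 2.17.0+). As alternatives, the pseudocount was set to 0.1, the filter was dropped or raised to a mean of 5, and the model was cut to the compared groups. Others were 2 forms of replicate block, quantile and median-ratio scaling, leaving out OKS and mitochondrial genes, a 2-fold minimum, and leaving out each library. Sequence was read from RefSeq promoter windows, with no genome. Plots were drawn with matplotlib 3.10.9. Some genes are not reported here.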

Additional observations from a re-analysis of the deposited data

Results flagged for a closer look

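The change from day 1 to day 3 differed between arms for the following genes, as tested with limma on the contrast between the steps. They are the largest in each direction by the naming rule, and the values are differences of log2 changes.

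In p38i the rise was smaller than in DMSO for the GTPases Tgtp2 (-4.63), Iigp1 (-3.91) and Igtp (-3.38) and for the immunoproteasome subunits Psmb9 (-3.44) and Psmb8 (-3.22). Tgtp2 was at 0 and 1 on day 3 in p38i and at 22 and 52 in DMSO. At a pseudocount of 0.1 the differences of Igtp and Psmb8 were no longer called (adjusted p = 0.217 and 0.443, limma), and these, with Tgtp2, were also lost when only the groups compared were fitted.

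The change was more positive in p38i for Fndc4 (1.44), Mmp10 (1.18), Pisd-ps1 (1.11), Gap43 (1.09) and Nme4 (1.08). Gap43, a growth cone protein, went from 54 and 59 to 38 and 31 in DMSO and from 38 and 44 to 56 and 52 in p38i. Pisd-ps1 shares sequence with Pisd and Pisd-ps2. Of 17 alternatives, the call was lost in 11 for Nme4, 8 for Fndc4, 7 for Mmp10, 6 for Pisd-ps1 and 1 for Gap43.

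In pre-p38i the rise was larger than in DMSO for Cxcl10 (2.75), Gm12250 (2.63), Il18bp (2.54), Tgtp2 (2.32) and Mpeg1 (2.30). The chemokine gene Cxcl10 was at 17 and 19 on day 3 in pre-p38i and at 3 in both DMSO libraries. Mpeg1, a perforin-like gene of macrophages, was at 65 in both day 3 libraries of pre-p38i and at 23 and 29 in DMSO. The macrophage markers had median log2 changes of 0.86 and 0.81 in these arms, whose part was not tested. The call was lost in 11 of 16 alternatives for Cxcl10, and of 17 alternatives in 4 for Il18bp, 2 for Tgtp2, 1 for Gm12250 and 0 for Mpeg1.

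The change was more negative in pre-p38i for Gm15920 (-1.83), Defb1 (-1.66), Hddc3 (-1.59), Lrrn3 (-1.52) and Rgs5 (-1.52). Gm15920 shares sequence with Ndufa12. The defensin gene Defb1 rose in DMSO from 1 and 0 to 20 and 25. The call was lost in 5 alternatives for Hddc3, 2 for Defb1 and 0 for the other 3. Groups of 2 libraries are too small to test for a stray library.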

How the results depend on the processing

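The count of genes changed from day 1 to day 3 was 5889. It stayed within 1.5 times that in every alternative but 2, a model of the compared groups alone (3700, of which 1775 were higher and 1925 lower) and a 2-fold minimum (1496), and was 4740 to 4999 without 1 library. Such a model estimates the spread from 4 libraries. The same 2 alternatives gave 202 and 162 genes for p38i against DMSO, in place of 369, and 269 and 191 for pre-p38i against DMSO, in place of 786. Without 1 library these counts were 248 to 285 and 433 to 746. For pre-p38i they were 433 without DMSO day 3 replicate 1, 461 without pre-p38i day 3 replicate 2, 488 without DMSO day 1 replicate 1 or pre-p38i day 3 replicate 1, and 507 without pre-p38i day 1 replicate 2. With the replicate number as a block the 3 counts were 5879, 359 and 750, and with a block within time point 5730, 301 and 582. Over 91 pairs of groups, deviations of same-numbered libraries correlated between -0.0838 and 0.0874, so the values showed no effect shared by number. They cannot tell whether same-numbered libraries came from the same culture.

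Of 196 named genes tested, 185 were called and 140 of these kept the call in every alternative that could be run. The call of Gm12751, among the 12 largest falls at 2 and 24, then 0 and 0, was lost in 5 alternatives, and its log2 change was -1.58 without day 1 replicate 2 (adjusted p = 0.366, limma). The difference for Trh between pre-p38i and DMSO was -0.37 at a pseudocount of 0.1, against 0.86, the pre-p38i day 1 libraries being at 0 and 1. Rounding limits what genes at 1 or 2 can show, and their counting error is unknown.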
